A study of Homo sapiens with 16 samples.

Results

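MYC is the transcription factor gene at 8q24, and it lies with few other protein-coding genes in a stretch of chromosome that holds many distal regulatory elements. H3K27ac peaks over MYC and within 1 Mb on either side of it were taken from 16 ChIP-seq peak lists. In hg38 the GENCODE gene body of MYC (ENSG00000136997.22) runs over chr8:127735434-127742951 on the plus strand, a length of 7.518 kb, so the window measured 2.007518 Mb. MYC is 1 of 62700 annotated genes and 1 of 2 protein-coding genes in the window, with POU5F1B, a retrogene related to the pluripotency factor gene POU5F1. In all, 29 annotated genes touched the window, 15 of them long noncoding RNAs.

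MYC encodes a basic helix-loop-helix factor that binds DNA as a dimer with MAX and raises transcription of genes for growth, ribosome assembly and metabolism. Its own transcription is known to depend on enhancers spread over long distances on both sides of the gene, and different tissues use different ones. Acetylation of lysine 27 on histone H3 (H3K27ac) marks active promoters and enhancers, and PVT1, the long noncoding RNA gene just downstream of MYC, is known both for such enhancers and for a promoter that competes with that of MYC for them.

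The lists came from MDA-MB-231 and Hs578T, established human triple-negative breast cancer cell lines. Each line was used as control cells and as Fn14 KO cells, in which Fn14 (TNFRSF12A), the receptor of the cytokine TWEAK, was disrupted with CRISPR-Cas9 and 2 guides. Cells of all groups were starved of serum for 8 h. TWEAK groups then had 10 ng/ml TWEAK for 48 h, renewed after 24 h, and the others were left untreated. This gave 8 groups of 2 lists each. The study states in general terms that its cell line experiments were repeated independently on different days. The sample labels do not tie these lists to separate cultures, so p-values measure the spread between the lists, which may be technical. The supplement names genotyping primers for Fn14 KO among those for CRISPR clones and does not say how many clones each KO line holds, so genotype and clone cannot be told apart. Each list holds called peaks and no reads, so the sequencing depth is unknown, and in bulk chromatin fewer cells with the mark and less of it per cell cannot be told apart.

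The 16 lists held 705670 peaks, from 39544 to 47197 per list, and the median fold enrichment over input of a list lay between 4.998 and 5.89. The 4 MDA-MB-231 Fn14 KO lists had low medians (4.998 to 5.21, against 5.53 to 5.89 in MDA-MB-231 control lists), and the part of this in results that compare genotypes was not tested. At the promoter of TNFRSF12A itself, H3K27ac fold enrichment was 32.6 to 38.2 in the 8 control lists and 16.2 to 22.3 in the 8 Fn14 KO lists, without overlap, although a promoter peak does not show an edit of the coding sequence. The lines carried peaks at the promoters of 5 of 5 mesenchymal markers (VIM, ZEB1, CD44, AXL and SNAI2) in all lists. The epithelial genes KRT8, KRT18 and EPCAM and the luminal-list genes ERBB2 and GATA3 had peaks in all lists too, and FOXA1 in 2 MDA-MB-231 lists. None of the lists held a peak at CDH1, ESR1 or PGR, at the leukocyte gene PTPRC or at the T lymphocyte gene CD3E. The endothelial gene PECAM1 had one in all 16.

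Around MYC there were 56 to 78 peaks per list. Peaks of different lists that shared at least 1 bp were merged into regions, and those seen in 2 lists or more were retained. The window then held 73 regions of 55219 in the genome, and they are numbered here R01 to R73 from the most upstream to the most downstream. The 16 other merged window regions had a peak in 1 list only. Of the 73 regions, 40 carried a peak in all 16 lists (54.8%), against 51.3% of all regions. The desert was uneven. The 1 Mb upstream held 18 regions, 8 of them in all lists, and the downstream side held 54, of which 31 were in all lists. PVT1 alone held 23, and 21 of these were in all lists.

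**Figure D1:**
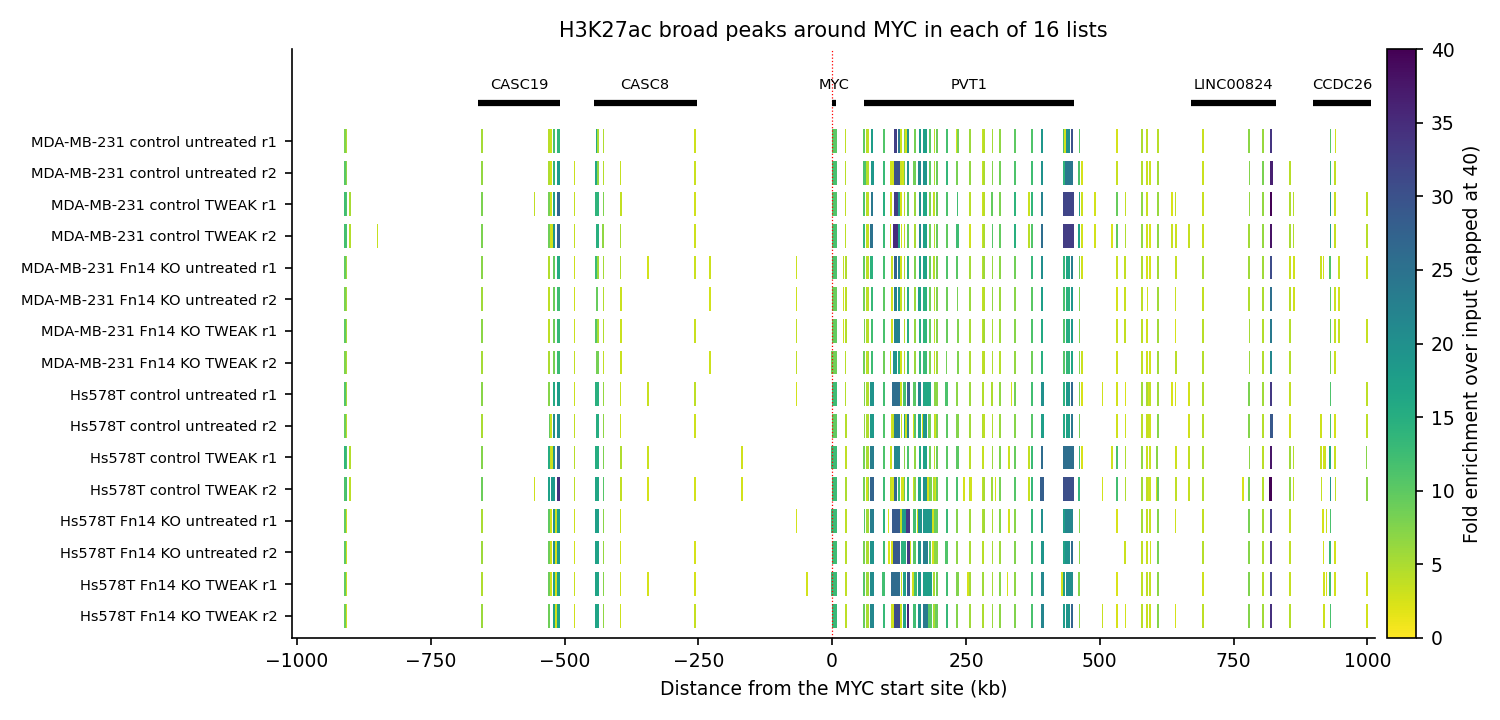
Peaks in the MYC window in each of the 16 lists, one row per list, by distance from the MYC start site in kb, coloured by fold enrichment over input (colour capped at 40). Peaks narrower than 3 kb are drawn 3 kb wide so that they can be seen. Black bars show 6 of the window's genes. Peaks are densest over PVT1, and the block near +440 kb is darkest in the 4 TWEAK lists of control cells.

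The extent of acetylated chromatin followed the same pattern. Peaks covered 166.7 kb of the window on average, from 134.5 to 192.8 kb. The upstream 1 Mb had 26.003 kb covered on average, which is 2.60% of its length. The gene body of MYC was covered in full in every list. The gap between MYC and PVT1 had 2.52 kb covered, PVT1 had 107 kb (27.3% of its length), and the stretch beyond PVT1 had 23.7 kb. PVT1 therefore carried 64.1% of the covered length of the window. Among windows drawn the same way around 19970 protein-coding genes, that of MYC ranked at percentile 90.2 by covered length, where the median window had 81.4 kb. Among the 608 windows with 5 protein-coding genes or fewer it ranked at percentile 99.7, and the median of those was 22.0 kb.

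Of the 29 genes, 14 had a peak within 2 kb of their start site in at least 1 list, and for 13 of them this held in all 16. MYC shared its peak with CASC11, a long noncoding RNA gene on the opposite strand whose start lies inside MYC, so the peak cannot be assigned to either. PVT1 and the miRNA gene MIR1204 shared another, with a fold enrichment of 6.87 to 13.3. The start of CASC19, a long noncoding RNA gene upstream, had 12.4 to 34.8. The start of PCAT1 had 3.97 to 6.61 and that of CCDC26 16.9 to 41.1, but both starts lie outside the window. The start of PRNCR1 had 4.72 to 9.06, LINC02912 8.44 to 13.4, MIR1207 4.39 to 9.48, and the noncoding gene ENSG00000286034 2.59 to 5.005. The other members were the pseudogene ENSG00000271509 (8.35 to 17.4) and the small RNA gene ENSG00000278324 (5.20 to 12.3). ENSG00000286010, whose start is at −64.4 kb from that of MYC, had a peak in 6 lists. POU5F1B had no peak at its start in any list.

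The peak over MYC itself was the same object in every list: 1 broad peak that began between −1992 and −1155 bp from the start site and ended 8215 to 8697 bp after it. Its width was 9.40 to 10.5 kb, which placed it among the widest 1% of its list (percentiles 99.0 to 99.6). In MDA-MB-231 control cells its fold enrichment was 10.2 and 11.8 untreated and 10.9995 and 11.7 with TWEAK. The Fn14 KO cells of this line had 11.4 and 9.16 untreated and 9.54 and 8.74 with TWEAK. Hs578T controls had 12.55 and 9.82 untreated and 12.8 and 12.7 with TWEAK, and Hs578T Fn14 KO cells 12.8 and 12.51, then 12.8 and 13.2. Untreated and TWEAK lists overlapped in MDA-MB-231 cells of both genotypes and in Hs578T Fn14 KO cells. In Hs578T control cells both TWEAK lists lay above both untreated lists. Divided by the list median they overlapped, at 2.38 and 1.90 untreated and 2.34 and 2.33 with TWEAK.

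**Figure D2:**
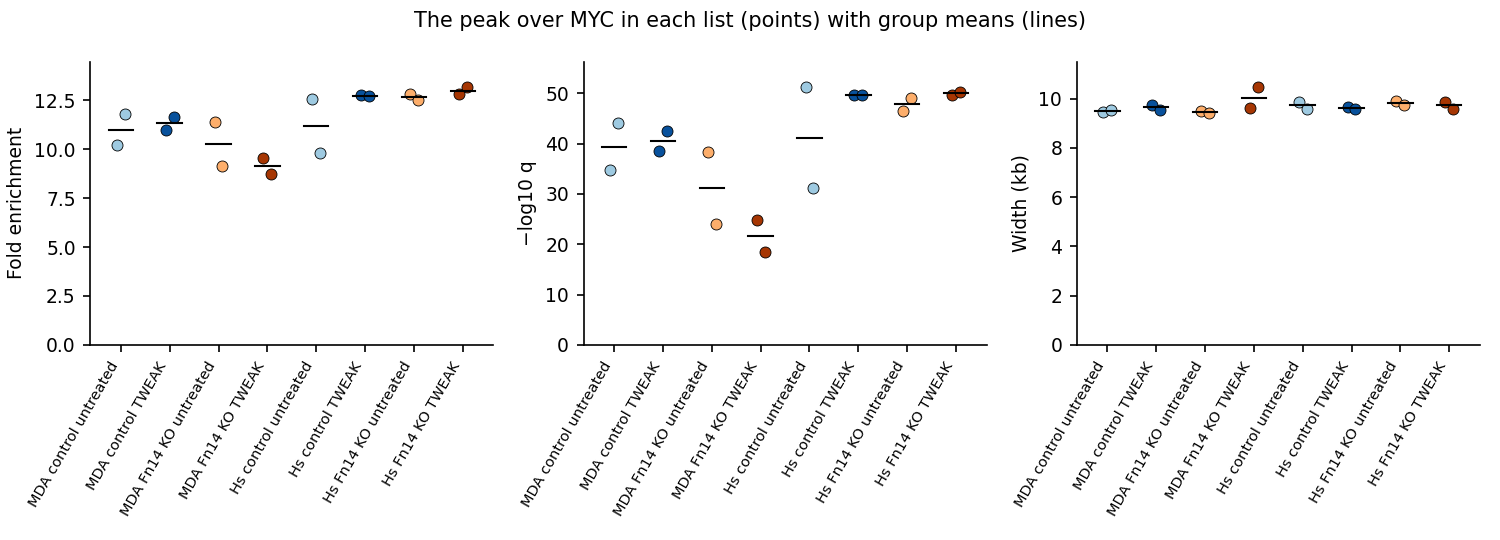
Fold enrichment, −log10 q and width (kb) of the peak over MYC, 1 point per list and a line at the mean of each group of 2 lists; MDA and Hs stand for MDA-MB-231 and Hs578T. Fold enrichment lies between 8.74 and 13.2 in all lists, and the 3 lowest are from MDA-MB-231 Fn14 KO cells.

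A change of the MYC peak with TWEAK was not detectable with this number of lists. Over both lines of control cells the TWEAK lists averaged 12.04 and the untreated lists 11.1 (difference 0.944, two-sided exact permutation test within lines, p = 0.278, where 0.0556 is the smallest p that 8 lists allow). In Fn14 KO cells the averages were 11.1 with TWEAK and 11.47 untreated (difference −0.407, exact permutation p = 0.722). The difference between these effects was 1.35 (exact permutation p = 0.222), and the difference of Fn14 KO from control over all lists was −0.296 (exact permutation p = 0.639). That last value pools opposite directions: Fn14 KO lists averaged lower than control lists in MDA-MB-231 and higher in Hs578T. The SD between replicate lists, pooled over the groups, was 1.01. Peak width and −log10 q gave unadjusted exact permutation p-values from 0.235 to 0.778 in the same comparisons.

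The lines did differ at MYC, in the permutation test before adjustment only. Fold enrichment averaged 12.4 ± 1.06 (SD, n = 8) in Hs578T against 10.4 ± 1.19 (SD, n = 8) in MDA-MB-231, and 7 of the 8 Hs578T lists lay above every MDA-MB-231 list. The two-sided exact permutation test within genotype and treatment gave p = 0.0139 (0.117 after Benjamini-Hochberg adjustment over 42 tests at this locus). The strength of the call moved the same way, with a mean −log10 q of 33.2 in MDA-MB-231 and 47.1 in Hs578T (exact permutation p = 0.0139, adjusted 0.117). Of the 4 MDA-MB-231 Fn14 KO lists, 3 had the lowest values of all (18.5, 24.0 and 24.9). The median −log10 q of their whole lists was lower as well, 5.79 to 7.69 against 9.44 to 10.8 in MDA-MB-231 control lists, and its part in the line difference was not tested.

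TWEAK was followed by changes of acetylation at many regions around MYC. To test single regions, limma was fitted to the log2 fold enrichment of the 28337 regions with a peak in all 16 lists, with each list centred on its median, and p-values were adjusted over all of them by the Benjamini-Hochberg method. A region is said below to rise or fall where its adjusted p was 0.05 or less. In control cells TWEAK raised 16 of the 40 window regions and lowered 9. Across the genome the same fit called 23.3% of regions higher and 24.9% lower, so the share of window regions that rose was above the background and the share that fell was near it. Without centring of the lists 17 window regions were called higher and 4 lower, against 26.4% and 16.6% of all regions. All 25 called regions moved in the same direction in both lines, as did 99.6% of the regions called across the genome. At 20 of the 25 the TWEAK and untreated lists did not overlap in either line, which held for 87% of the regions called across the genome. Regions with a peak missing in any list could not enter this fit.

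The MYC region, R19, was among those that were not called. Its log2 change with TWEAK was 0.05 ± 0.07 (SE) in control cells and −0.03 ± 0.07 in Fn14 KO cells.

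**Figure D3:**
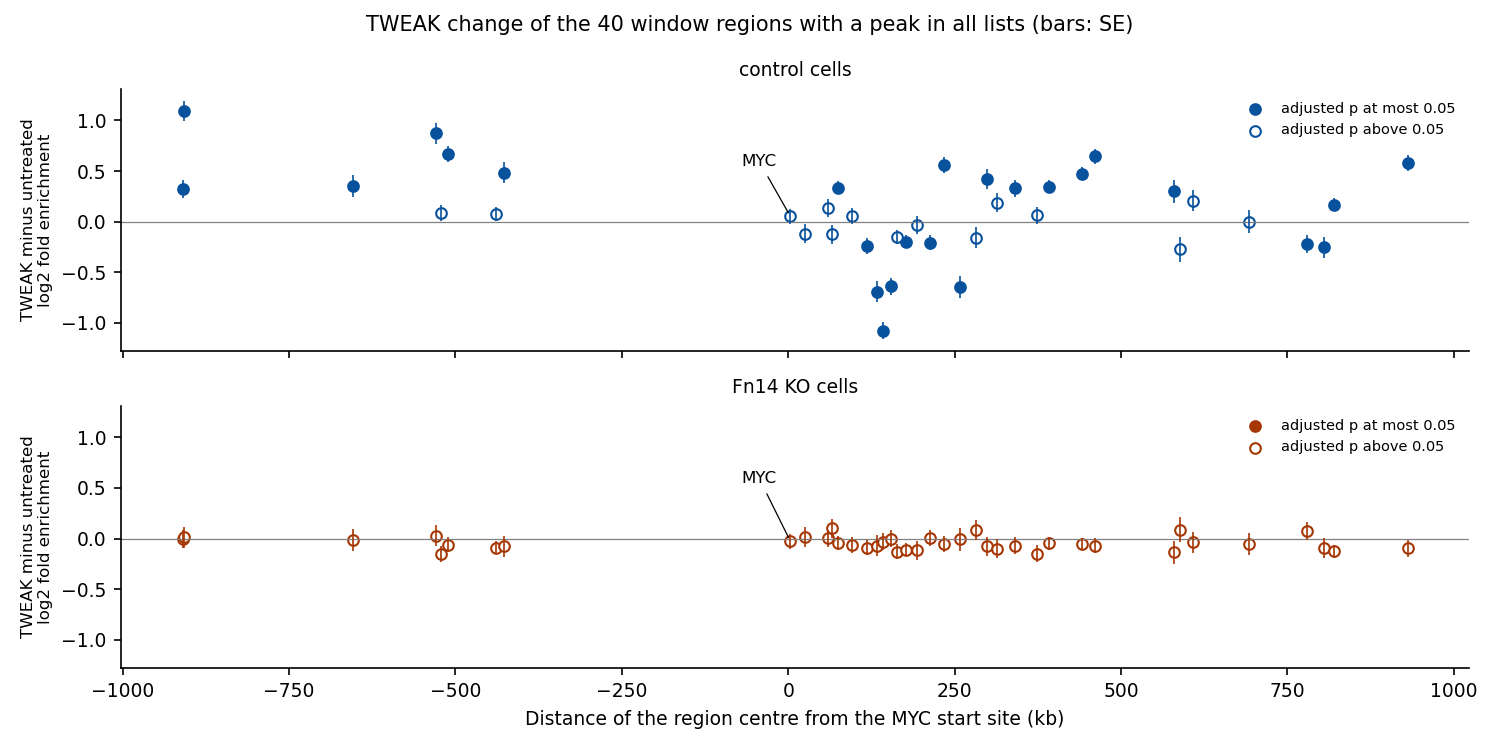
TWEAK-minus-untreated difference in log2 fold enrichment for the 40 window regions with a peak in all lists, by distance of the region's centre from the MYC start site in kb, in control cells (top) and Fn14 KO cells (bottom). Values average both lines. Bars are SE from limma and filled points have an adjusted p of 0.05 or less. Control cells show rises upstream, falls between +118 and +257 kb with 1 rise among them, and mostly rises further out, while no point is filled in Fn14 KO cells.

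Upstream of MYC all 6 called regions rose, and the other 2 tested were not called. The largest rise among the fitted window regions was at R02, chr8:126827081-126829014. It lies at −907 kb from the MYC start in introns of PCAT1 and of another noncoding gene. Its fold enrichment in MDA-MB-231 control cells was 4.83 and 6.87 untreated and 11.1 and 11.7 with TWEAK. The Hs578T controls went from 5.44 and 4.10 to 11.8 and 12.1. The Fn14 KO lists of both treatments stayed between 2.92 and 5.48, so the 4 control TWEAK lists stood apart from all the others. The log2 change was 1.09 ± 0.10 (SE, limma adjusted p = 2.80e-09) in control cells and 0.01 in Fn14 KO cells. The neighbouring R01 rose by a log2 change of 0.32 ± 0.09 (limma adjusted p = 0.00437), and R04, over the start of PRNCR1, by 0.35 ± 0.11 (limma adjusted p = 0.0102).

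The next rises lay at and near the start of CASC19, in a stretch of 8q24 known for inherited cancer risk. R09, chr8:127221305-127226712, lies at the CASC19 start, at −511 kb. It measured 13.7 and 18.1 in untreated and 26.8 and 27.4 in TWEAK-treated MDA-MB-231 control cells. The Hs578T controls had 18.1 and 20.5, then 28.01 and 34.8. Fn14 KO lists ranged from 12.4 to 15.6 for MDA-MB-231 and from 16.7 to 18.3 for Hs578T, and the change in control cells was 0.67 ± 0.08 on the log2 scale (limma adjusted p = 6.40e-08). R06, at −529 kb and over a CASC19 exon, rose by 0.87 ± 0.10 (limma adjusted p = 1.23e-07). Its values went from 4.10 and 4.83 to 8.25 and 8.62 in MDA-MB-231 controls and from 7.22 and 9.52 to 15.2 and 17.3 in those of Hs578T. Between R06 and R09, R07, the widest of the upstream regions at 8.365 kb, had a log2 difference of 0.08 ± 0.08 and was not called. R12, in CASC8 at −428 kb, rose by 0.48 ± 0.10 (limma adjusted p = 0.000427).

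Downstream, the 21 tested regions in PVT1 moved both ways: 6 rose and 7 fell. The falls lay together in the first part of the gene, between 118 and 257 kb from the MYC start. The deepest was R28, chr8:127874300-127880147, in a PVT1 intron 142 kb downstream. In MDA-MB-231 control cells it measured 19.4 and 19.96 untreated against 9.84 and 9.77 with TWEAK, and for Hs578T controls 27.4 and 22.8 against 11.3 and 13.7. Among Fn14 KO lists the range was 29.0 to 36.1 for Hs578T and 13.2 to 15.5 for MDA-MB-231, with untreated and TWEAK lists overlapping in both. The log2 change was −1.08 ± 0.08 (limma adjusted p = 9.60e-11) in control cells and −0.03 in Fn14 KO cells.

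Its neighbours R27 (−0.69 ± 0.10, limma adjusted p = 4.10e-06) and R29 (−0.64 ± 0.08, limma adjusted p = 9.29e-07) fell with it. So did R35, 257 kb downstream (−0.64 ± 0.11, limma adjusted p = 3.00e-05). The other 3 falls in PVT1 were smaller: R26 (−0.24 ± 0.08), R31 (−0.20 ± 0.07) and R33 (−0.21 ± 0.08, at the start of LINC02912), with limma adjusted p-values of 0.0139, 0.0140 and 0.0279. These 3 calls were lost without centring (limma adjusted p = 0.118, 0.260 and 0.287), those of R26 and R31 also by the highest peak of the region (limma adjusted p = 0.829 and 0.380), and each without at least 1 of the lists. R26 and R31 are the widest after R44 of the regions found in all lists (18.2 and 17.5 kb). R34, in the midst of these at 234 kb, went the other way and rose by 0.56 ± 0.08 (limma adjusted p = 1.89e-06).

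Further along PVT1 the called regions rose. R44, chr8:128166204-128186541, spans 20.3 kb inside the 3′ end of PVT1, 441 kb from the MYC start, and is the widest region in the window that all lists share. Its fold enrichment was 21.3 and 22.5 untreated and 31.7 and 32.9 after TWEAK in MDA-MB-231 controls. For Hs578T controls it was 20.1 and 18.8, then 25.7 and 30.5, and all 8 Fn14 KO lists lay between 14.0 and 21.4. It rose by 0.47 ± 0.06 (limma adjusted p = 9.96e-07). In each of the 4 control TWEAK lists it was called as 1 unbroken peak of 19.9 to 20.2 kb, the widest peak of the window. None of the other 12 lists had it as the widest except untreated MDA-MB-231 control replicate 2, where that peak was 15.0 kb. When the highest peak in the region stood for it in place of the length-weighted mean, R44 was no longer called (limma adjusted p = 0.265).

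Just beyond the end of PVT1, R45 (chr8:128195328-128198849, in no annotated gene) rose by 0.64 ± 0.07 (limma adjusted p = 1.01e-07). It measured 10.5 and 11.3 untreated against 17.6 and 17.0 with TWEAK in controls of MDA-MB-231, and 7.77 and 8.42 against 13.5 and 13.9 in those of Hs578T. Fn14 KO lists were at 6.89 to 8.81. Inside PVT1, R24 (0.34 ± 0.07), R37 (0.42 ± 0.10), R40 (0.33 ± 0.08) and R43 (0.34 ± 0.06) rose as well, with limma adjusted p-values from 7.99e-05 to 0.00141. The PVT1 promoter, R22, was not called with a change of 0.13 ± 0.08.

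Further out, R70 in a CCDC26 intron 931 kb downstream rose by 0.58 ± 0.08 (limma adjusted p = 1.85e-06). R63 held the strongest peak of the window in 15 of the 16 lists, an intronic element of LINC00824 at 820 kb with a fold enrichment of 21.6 to 40.7. It rose by 0.17 ± 0.06 (limma adjusted p = 0.0294), but with quantile normalisation of the lists the adjusted p of limma was 0.953. R52 rose (0.30 ± 0.11, limma adjusted p = 0.0302), and R61 and R62, also in LINC00824, fell, with log2 changes of −0.22 ± 0.09 and −0.25 ± 0.10 (limma adjusted p = 0.0465 and 0.0438). Of 20 alternatives of the fit the call at R61 held in 5 and that at R62 in 12, and both were lost without centring and with quantile normalisation. The call at R52 held in 16 and that at R63 in 15.

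**Figure D4:**
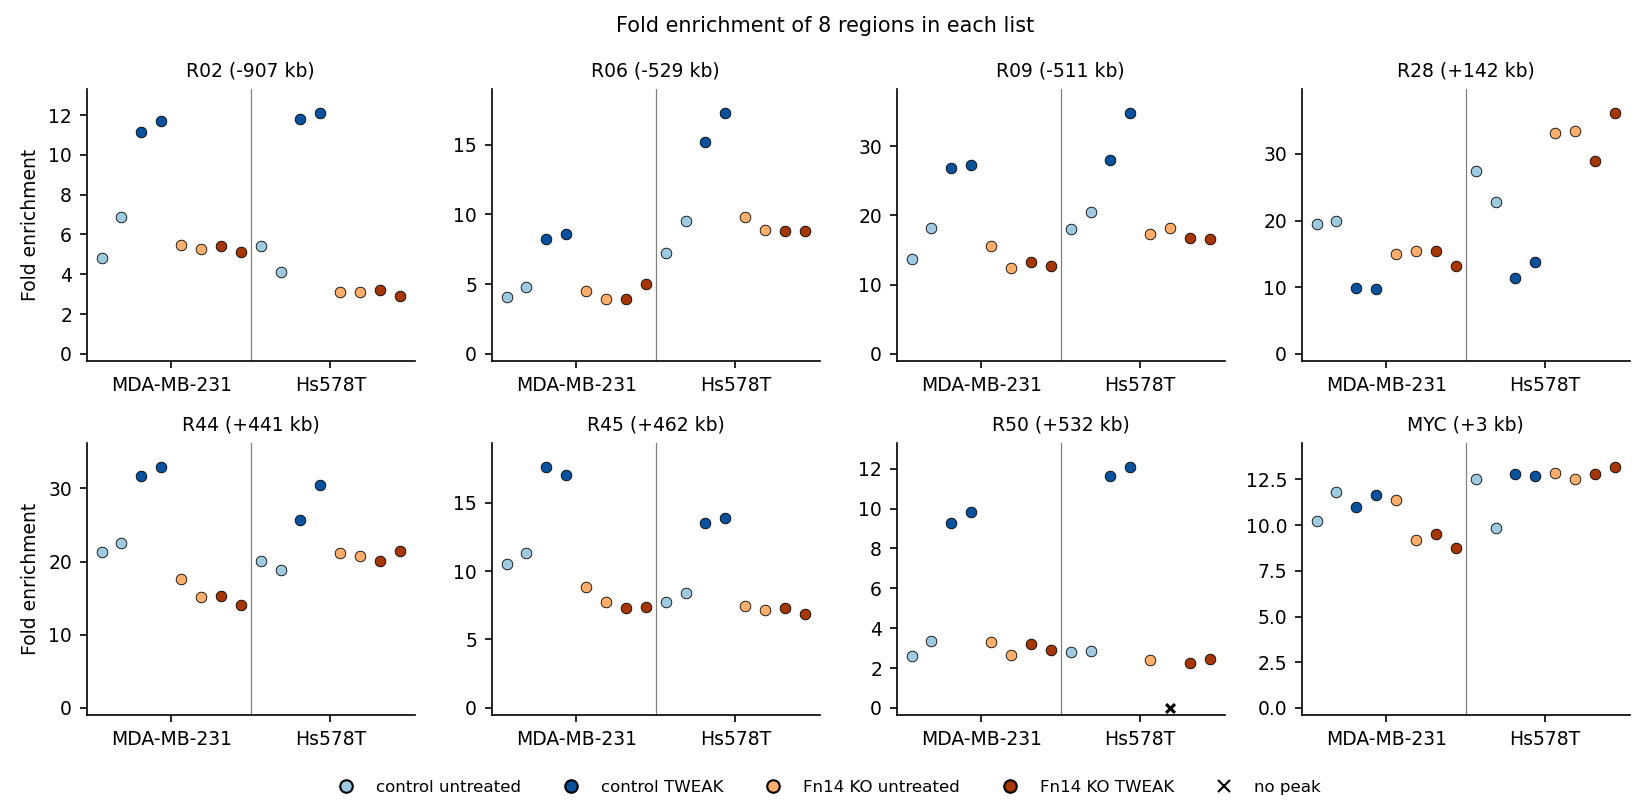
Fold enrichment of 8 window regions in each list, MDA-MB-231 on the left and Hs578T on the right of each panel, coloured by genotype and treatment; a cross marks a list with no peak and titles give the distance from the MYC start. Within each line the TWEAK lists of control cells lie above the untreated control lists at R02, R06, R09, R44, R45 and R50 and below them at R28. At MYC they overlap in MDA-MB-231.

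In Fn14 KO cells no TWEAK change passed at any of the 40 window regions. limma called 0 at an adjusted p of 0.05 and 0 at an unadjusted p of 0.05 (the smallest was 0.0588). Averaged over the lines, the largest log2 change of any region was 0.152 in size, with SEs of 0.0629 to 0.122. Within a line some changes were larger, and the lines could differ in sign. R37 had −0.299 in MDA-MB-231 and 0.143 in Hs578T, and its untreated and TWEAK lists did not overlap in either line. Genome-wide the calls were 0% higher and 0% lower. Of the 40 averaged log2 changes 9 were positive (22.5%, against 47.5% of all regions), with a median of −0.0545 against −0.00534 over all regions. The difference of the TWEAK effect between control and Fn14 KO cells was itself tested. It passed for 19 of the 40 window regions, 15 with the more positive change in control cells and 4 with the more negative, against 17.5% and 16.7% of all regions (17 and 4 without centring, against 20.5% and 8.72%). All 19 were among the 25 regions called in control cells. The TWEAK effect of control cells did not differ detectably between the lines at any of the 40 (0 higher and 0 lower by limma, with 1 at an unadjusted p of 0.05, and 0% and 0% across the genome).

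Some smaller elements appeared or vanished. A region is called gained where, within a genotype of a line, a peak was present in both TWEAK lists and absent from both untreated lists, and lost in the opposite case. In MDA-MB-231 control cells 8 of the 73 window regions were gained (10.96%, against 5.58% of all regions) and 0 were lost (4.49% of all regions). In Hs578T control cells 4 were gained (5.48%, against 5.09%) and 0 were lost (4.65%). In Fn14 KO cells 0 were gained and 1 lost in MDA-MB-231 (0.321% and 1.35% of all regions), and 2 gained and 1 lost in Hs578T (1.05% and 0.829%). With only the peaks at or above the median −log10 q of all lists, the gains in MDA-MB-231 control cells numbered 2 and the losses 2.

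The 3 regions gained in both lines were R03, R41 and R65. R03 lies at −901 kb beside R01 and R02, and R41 lies in a PVT1 intron 368 kb downstream. R03 measured 5.16 and 4.52 with TWEAK in controls of MDA-MB-231 and 4.38 and 4.004 in those of Hs578T. R41 measured 3.13 and 4.20, then 3.66 and 3.42. No other list had a peak at either, Fn14 KO cells included. R65, 862 kb downstream in no gene, had 4.23 and 4.58 in MDA-MB-231 and 4.43 and 3.49 in Hs578T, and also a weak peak in both untreated MDA-MB-231 Fn14 KO lists (2.73 and 2.91).

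The other 5 gains of MDA-MB-231 control cells were R47, R51, R57, R58 and R73, at 491 to 999 kb, with fold enrichments of 2.49 to 4.81. The other gain of Hs578T control cells was R17, at −168 kb, at 2.82 and 2.71. In Hs578T Fn14 KO cells R68 and R73, both in CCDC26, were gained, and R67 beside them was lost. The 1 loss in MDA-MB-231 Fn14 KO cells was R65.

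R50, 532 kb downstream in no gene (chr8:128266166-128269018), met neither rule, and it was singled out after its values were seen. It had a peak in 15 lists and so was not fitted. Its fold enrichment was 2.60 and 3.35 untreated and 9.28 and 9.82 after TWEAK in MDA-MB-231 controls. Hs578T controls had 2.79 and 2.87, then 11.7 and 12.1. The 7 Fn14 KO lists with a peak there were between 2.27 and 3.30, and Hs578T Fn14 KO untreated replicate 2 had none.

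Without TWEAK, the genotypes differed at 1 region by fold enrichment averaged over the lines, and at more by the presence of a peak. Opposite differences in the lines cancel in that average. At R28 the untreated control lists lay above the Fn14 KO lists in MDA-MB-231 and below them in Hs578T. limma called 1 of the 40 regions higher in untreated Fn14 KO than in untreated control cells and 0 lower, against 3.92% and 6.07% of all regions (0 and 1 without centring, against 1.16% and 11.5%). The 1 region was R56, 608 kb downstream in ENSG00000286034 (log2 difference 0.33 ± 0.10, limma adjusted p = 0.0400). Its call held in 13 of 20 alternatives of the fit. Under TWEAK the same comparison called 9 regions higher and 18 lower in Fn14 KO cells (24.7% and 25.6% of all regions), and 4 and 19 without centring (10.2% and 42.5%), where the median log2 difference over all regions was −0.186. Among those called were R02 (−1.34 ± 0.10, limma adjusted p = 8.55e-11) and R28 (1.15 ± 0.08, limma adjusted p = 3.29e-11). These tests share the TWEAK-treated control lists with those of TWEAK above, so they are not separate evidence.

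By peak presence, 7 of the 73 window regions differed between untreated MDA-MB-231 genotypes (9.59%, against 4.22% of all regions). Peaks were in the Fn14 KO lists only at 7 of them (2.14% of all regions) and in the control lists only at 0 (2.08%). With TWEAK 6 differed in MDA-MB-231 (8.22%, against 9.42% of all regions). Of these, 1 had peaks in Fn14 KO lists only (3.21% of all regions) and 5 in control lists only (6.21%). In Hs578T 5 differed untreated (6.85%, against 4.27% of all regions). Of these, 2 had peaks in Fn14 KO lists only (2.02% of all regions) and 3 in control lists only (2.25%). With TWEAK 7 differed there (9.59%, against 13.5% of all regions). Of these, 1 had peaks in Fn14 KO lists only (6.55% of all regions) and 6 in control lists only (6.93%). With only the peaks at or above the median −log10 q of all lists, 0 regions differed between untreated genotypes in either line. R18, at the start of ENSG00000286010, had a peak in each of the 4 Fn14 KO lists of MDA-MB-231 (3.12 to 3.86) and in no MDA-MB-231 control list. In Hs578T it had a peak in 1 untreated list of each genotype. R08, next to CASC19's R07, had a peak in the 4 Hs578T Fn14 KO lists (2.60 to 3.17) and nowhere else. R59, 666 kb downstream, had one in the 4 Hs578T control lists (2.73 to 3.65) and in 1 MDA-MB-231 control list. R65 differed in both treatments of MDA-MB-231, in opposite directions.

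Measures summed over the window showed the same contrast more faintly. In control cells the window held 68.5 peaks on average with TWEAK and 60 untreated, and 59.8 against 60.8 in Fn14 KO cells. The exact permutation test within lines gave p = 0.0556 in control cells, the smallest it can give, and p = 0.778 for Fn14 KO. The mean fold enrichment of window peaks weighted by length was 15.9 and 16.2 with TWEAK against 14.0 and 14.6 untreated in MDA-MB-231 controls. For Hs578T controls it was 14.4 and 15.7 against 14.0 and 13.1, so the groups did not overlap in either line. The difference was 1.62 in control cells (exact permutation p = 0.0556) while Fn14 KO cells had −0.769 (exact permutation p = 0.167). The difference between the effects was 2.39 (exact permutation p = 0.00463, adjusted over 42 tests 0.0648). That p refers to no TWEAK effect in either genotype, because treatment labels were exchanged within each line and genotype. Covered length went from 162.6 to 176.9 kb in control cells (exact permutation p = 0.167). As a share of the covered length of the whole list it was 0.227% with TWEAK and 0.201% untreated in control cells (exact permutation p = 0.0556). Of the 42 tests at the locus none had an adjusted p of 0.05 or less. The whole MDA-MB-231 control lists also had a higher median fold enrichment with TWEAK (5.89 and 5.88) than untreated (5.53 and 5.60), as did those of Hs578T (5.47 and 5.45 against 5.27 and 5.18), and its part in the summed measures was not tested.

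Peaks covered more of the window in Hs578T than in MDA-MB-231, a difference that did not pass adjustment. In Hs578T peaks covered 184.1 ± 8.82 kb (SD, n = 8) and in MDA-MB-231 149.4 ± 14.7 kb (SD, n = 8), a difference of −34.7 kb (exact permutation p = 0.00154, the smallest that 16 lists allow here, adjusted 0.0648). Of this, PVT1 had 93.7 kb covered in MDA-MB-231 and 120 kb in Hs578T. In the 100 kb from 100 to 200 kb downstream the lines had 40.1 and 57.1 kb covered. The Hs578T lists were unlike each other there, with 60.3 to 68.6 kb in Fn14 KO cells, 62.0 and 48.3 kb in untreated controls and 40.3 and 45.8 kb in TWEAK-treated controls. The last pair lay within the range of the MDA-MB-231 lists, 36.7 to 49.2 kb. The MDA-MB-231 lists covered less of the genome too (64.2 to 82.9 Mb, against 77.8 to 88.9 Mb), and the MYC window took a smaller share of it, 0.205% against 0.215% (exact permutation p = 0.00309, adjusted 0.0648). Among windows around all protein-coding genes, the difference at MYC was at percentile 5.84, where the median window had −12.0 kb.

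**Figure D5:**
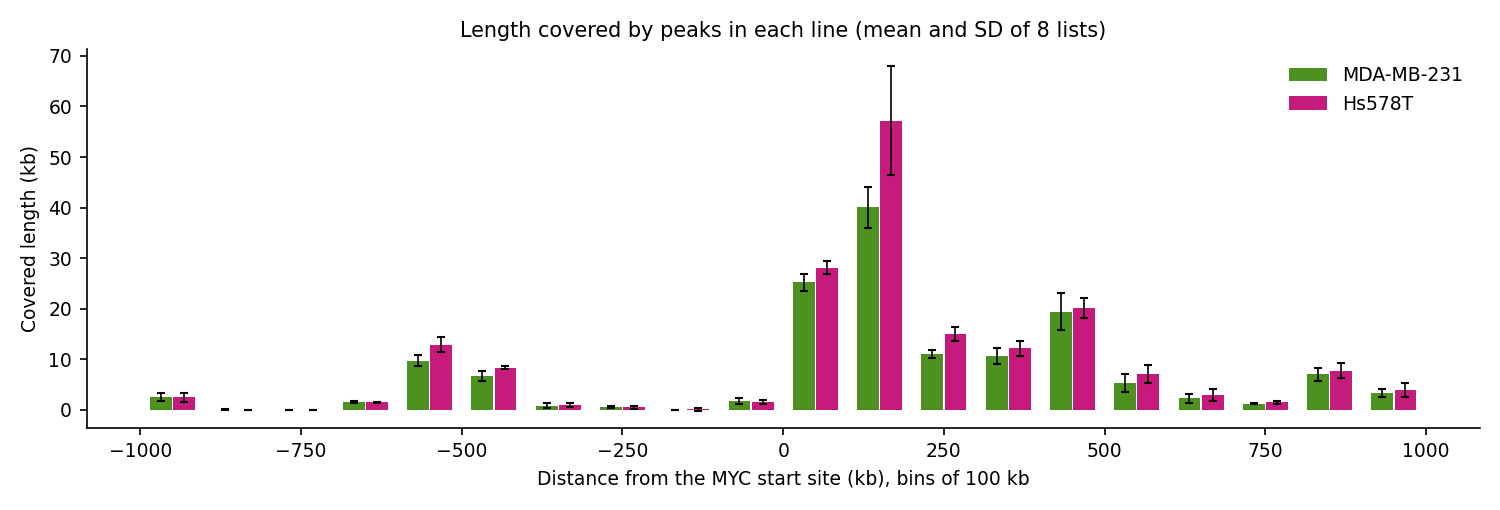
Length covered by peaks in each 100 kb bin around MYC, by distance from the MYC start site in kb, as the mean and SD of the 8 lists of each line. The largest gap between the lines is in the bin from 100 to 200 kb downstream, inside PVT1, with 40.1 kb in MDA-MB-231 and 57.1 kb in Hs578T.

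By presence, 4 of the 73 window regions had peaks in MDA-MB-231 lists only (5.48%, against 3.34% of all regions) and 7 in Hs578T lists only (9.59%, against 8.74%), each of them in 2 to 4 lists. None had a peak in all 8 lists of one line and no list of the other, a pattern that 0.152% (MDA-MB-231) and 0.328% (Hs578T) of all regions showed, so the window is too small to read from it. limma called 7 of the 40 regions higher and 14 lower in MDA-MB-231, against 32% and 27.7% of all regions (7 and 17 without centring, against 20.4% and 34.4%). The MYC region was among the lower ones (log2 difference −0.17 ± 0.05, limma adjusted p = 0.00677). The exact permutation test of the MYC peak, on lists that were not centred, gave an adjusted p of 0.117 for the lines and did not pass.

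Among the widest regions, R27 differed most. Its fold enrichment was 3.49 to 5.74 in the 8 MDA-MB-231 lists and 7.37 to 15.0 in the 8 Hs578T lists, without overlap, for a log2 difference of −1.30 ± 0.07 (limma adjusted p = 4.64e-13). R28 and R29 beside it were also lower in MDA-MB-231 (−0.67 ± 0.06 and −0.46 ± 0.06, limma adjusted p = 7.74e-10 and 5.70e-07). These 3 are the same PVT1 elements that fell with TWEAK in control cells of both lines. Upstream, R06 was lower in MDA-MB-231 (log2 difference −0.91 ± 0.07, limma adjusted p = 1.61e-10), and R07, R09, R11 and R12 were lower too. R02 (0.53 ± 0.07, limma adjusted p = 8.69e-07), R37, R40 and R45 were higher in MDA-MB-231. R22, the PVT1 promoter, was higher there as well (0.26 ± 0.06, limma adjusted p = 0.000511).

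Peaks were also joined into domains at the default distance of ROSE, the program the study used for super-enhancers. As a stand-in, domains were ranked by covered length, because the lists hold no reads. The window had 3 to 5 large domains in each list. The largest ran from 94.0 to 115 kb up to 197 or 198 kb downstream, in PVT1, with 36.8 to 72.7 kb covered. It ranked 17th to 38th of the 24632 to 27564 domains of its list. The domain of MYC itself ranked 648 to 1656 and passed the cut-off for large domains in 6 lists, 5 of them from MDA-MB-231. Those 5 were all the Fn14 KO lists of that line and control untreated replicate 1. The other was Hs578T control TWEAK replicate 1. In 14 lists the domain was the MYC peak alone, and in both untreated MDA-MB-231 Fn14 KO lists it joined 3 peaks.

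Promoters of genes listed for their link to MYC were mostly acetylated. Of 12 genes of the MAX network, which share MAX or its relatives as dimer partner, 9 had a promoter peak in all 16 lists. MYCN and MLXIPL had none and MYCL had one in 1 Hs578T list. All 6 genes listed here that act on MYC protein or with it (FBXW7, USP28, SKP2, CIP2A, AURKA and ZBTB17) had one in every list. Of 12 well-known MYC targets 9 did, while CCND2 had a peak in 2 MDA-MB-231 lists, TERT in 2 Hs578T lists and CDKN2B in none. For comparison, 57.3% of 19689 protein-coding genes had a promoter peak in all lists.

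In the same limma fit some promoters of each of the 3 lists were called with TWEAK in control cells. In each list the shares that rose and fell were below those of all regions, 23.3% higher and 24.9% lower. In the MAX network 1 of 9 rose and 1 fell, and the median log2 change was 0.0868 against −0.0175 over all regions. The fall was at MLXIP, which encodes a glucose-sensing factor that pairs with MLX (−0.76 ± 0.08, limma adjusted p = 2.88e-08), and the rise at MLX (0.24 ± 0.09, limma adjusted p = 0.0412). Among the genes of MYC protein control 1 of 6 rose and 1 fell (median −0.0406). They were CIP2A, whose product protects MYC from dephosphorylation (0.34 ± 0.07, limma adjusted p = 0.000404), and ZBTB17, the partner for repression also called MIZ1 (−0.30 ± 0.10, limma adjusted p = 0.0138). Of 9 target promoters 2 rose (GADD45A and CDK4) and 2 fell (E2F1 and CAD), with a median of −0.106. GADD45A, a stress gene that MYC is known to repress, had the largest change (0.49 ± 0.07, limma adjusted p = 4.01e-06). In Fn14 KO cells the limma fit called 0 promoters of the 3 lists. Between untreated genotypes 2 of 9 MAX network promoters were lower in Fn14 KO cells, MXI1 (−0.49 ± 0.10) and MGA (−0.38 ± 0.08), with limma adjusted p-values of 0.00342 and 0.00257, and 0 promoters of the other lists were called (3.92% of all regions were higher and 6.07% lower).

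Between the lines, 4 MAX network promoters were higher and 1 lower in MDA-MB-231 (32% and 27.7% of all regions), MLXIP being the lower one (−0.36 ± 0.06, limma adjusted p = 9.28e-06) and MXD3 the highest (0.29 ± 0.06). MAX itself was not called (−0.11 ± 0.07). Of the 6 protein control genes 3 were higher and 0 lower, led by CIP2A (0.47 ± 0.05, limma adjusted p = 2.79e-08), with USP28 at 0.31 ± 0.06 and ZBTB17 at 0.29 ± 0.07. Of the targets 6 were higher and 1 lower, the lower one being NCL, the nucleolin gene (−0.30 ± 0.06, limma adjusted p = 8.40e-05). CDKN1A (0.37 ± 0.07) and E2F1 (0.31 ± 0.08) were higher. The medians of the 3 lists were 0.0991, 0.167 and 0.232, against 0.0203 over all regions.

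The promoter whose fold enrichment followed that of MYC most closely over the 16 lists was the one shared by ANKMY2 and BZW2 (Pearson r = 0.914). CYB5B (r = 0.904), GOT1 (r = 0.892) and RIOK2 (r = 0.891) came next. The lists share cell lines and strength, and 160 of 11278 promoters had an r of 0.8 or more, so this is a description of the lists and carries no test.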

How the data were processed

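H3K27ac ChIP-seq was performed in 16 samples, and 1 broad peak list was deposited per sample. Per the submitters' processing notes and the study's methods, the authors used Trimmomatic on the reads, Bowtie2 for alignment to hg38 and MACS2, with input subtracted, to call peaks per sample, and removed blacklisted regions; tool versions are not given in the sources used here. In the deposited lists the fold enrichment is a ratio of the signal over input averaged over the broad peak. The deposited −log10 p-value and −log10 q-value give the strength of the call, and the score column is 10 times the −log10 q-value without its decimals. No file holds reads or counts, so differential tests on reads were not run.

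GENCODE 44 (hg38) gave gene positions. A promoter was 2 kb either side of a start site. Peaks sharing at least 1 bp were merged, and regions found in at least 2 lists were kept. Values of the MYC peak and of the window were compared with two-sided exact permutation tests within lines, genotypes or treatments, adjusted over 42 tests. For the TWEAK effect in control minus Fn14 KO cells, treatment labels were exchanged within each line and genotype, so p refers to no TWEAK effect in either genotype. Single regions with a peak in all 16 lists were tested with limma 3.58.1 in R 4.3.3 on log2 fold enrichment without a pseudocount, each list centred on its median, with 8 group means and p-values adjusted over 28337 regions. The limma contrasts of treatment and of genotype gave both lines equal weight, so opposite changes in the lines cancel. The limma fit was chosen after seeing the data. It was tested on simulated data. The members and gene lists were chosen with earlier results of these data known. Named were MYC, window genes with a promoter peak, window regions gained, lost or differing by genotype in both treatments, the 5 widest regions in all lists, the 5 promoters most like MYC and, of each gene list, members lacking a peak in some list and those with the largest line differences; regions called by limma were added after their values were seen. Some members of the gene lists, left out of their counts and medians, and sequences of this locus are not reported here.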

Additional observations from a re-analysis of the deposited data

Results flagged for a closer look

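With 2 lists per group no group was large enough to look for a list that stood apart from its group. What follows are differences between control and Fn14 KO cells in their response to TWEAK, each tested as a difference. The exact permutation test of it exchanged treatment labels within each line and genotype. Its p therefore refers to no TWEAK effect in either genotype, and not to equal effects.

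For the mean fold enrichment of window peaks the TWEAK effect was 2.39 larger in control than in Fn14 KO cells (two-sided exact permutation test, p = 0.00463, adjusted over 42 tests 0.0648). For the share of a list's covered length that lay in the window it was 0.0262 percentage points larger (exact permutation p = 0.0463, adjusted 0.211).

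In the limma fit over 28337 regions, 19 window regions had an adjusted p of 0.05 or less for this difference, given here as the log2 TWEAK change in control cells minus that in Fn14 KO cells. Upstream of MYC it was 0.32 at R01, 1.08 at R02, 0.84 at R06, 0.73 at R09 and 0.56 at R12. In PVT1 it was 0.38 at R24, 0.62 at R34, 0.50 at R37, 0.40 at R40, 0.39 at R43 and 0.53 at R44. Beyond PVT1 it was 0.71 at R45, 0.44 at R52, 0.29 at R63 and 0.68 at R70. The 4 negative differences were all in PVT1, −0.62 at R27, −1.05 at R28, −0.63 at R29 and −0.64 at R35. Of the 19, 15 passed under every alternative of the fit. Of 20 alternatives R01 passed in 6 and R52 in 9, R63 did not pass with quantile normalisation (limma adjusted p = 0.461), nor did R44 by the highest peak (limma adjusted p = 0.200). At the MYC region itself the difference was 0.08 ± 0.10 (SE), and it did not pass.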

How the results depend on the processing

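Limits: only called peaks were compared, and depth is unknown. limma used regions with a peak in all 16 lists, so weaker elements were compared by presence alone. The limma fit and its alternatives were chosen after seeing the data.

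Of 93 single-region calls 68 held under every alternative run, namely 21 of 21 between the lines, 16 of 25 for TWEAK in control cells, 15 of 19 for the difference of the TWEAK effect between genotypes, 16 of 27 for Fn14 KO minus control under TWEAK and 0 of 1 for untreated Fn14 KO minus control. Leaving out the centring kept 82 of the 93, quantile normalisation 82, and the highest peak of a region 84. Without centring 4 regions were called lower with TWEAK in control cells, 0 higher and 1 lower in untreated Fn14 KO cells, and 4 higher in TWEAK-treated Fn14 KO cells. Quantile normalisation called 2 higher in untreated Fn14 KO cells and the highest peak 0. Fn14 KO minus control under TWEAK turned at R26 (−0.00730 without centring, −0.0363 by the highest peak) and at R63 (0.0291 with quantile normalisation). The cause was not tested.

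At the MYC peak, dividing by the list median turned Fn14 KO minus control to 0.0742. In a window of 500 kb either side, covered length turned for TWEAK over all lists (−0.251 kb) and for Fn14 KO minus control (1.06 kb). As a share of the list's covered length, TWEAK over all lists (0.0128) and the TWEAK effect in control minus that in Fn14 KO cells (0.0262) had unadjusted exact permutation p-values of 0.0478 and 0.0463.

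Counts of gained and lost regions moved with the rule. With only peaks whose −log10 q reached the median over all lists, MDA-MB-231 control cells gained 2 and lost 2, MDA-MB-231 Fn14 KO cells lost 4, Hs578T control cells lost 1, and Hs578T Fn14 KO cells gained 0 and lost 0; 0 regions differed by genotype in untreated MDA-MB-231 and 0 in untreated Hs578T. With lists trimmed to the shortest, MDA-MB-231 Fn14 KO lost 0, Hs578T control gained 7 and lost 1, Hs578T Fn14 KO gained 0 and lost 0, and 3 differed in untreated Hs578T. With at least 50% of the region covered, MDA-MB-231 Fn14 KO gained 1 and lost 2, Hs578T control gained 7 and lost 2, Hs578T Fn14 KO gained 1 and lost 0, and the genotypes differed at 4 (MDA-MB-231 untreated), 10 (MDA-MB-231 TWEAK) and 13 (Hs578T TWEAK). Joining peaks at up to 5 kb gave median ranks of 87.5 for the largest domain and 795 for that of MYC, and 6 large domains; with only peaks of at least the median −log10 q the ranks were 18 and 991.

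Leaving out 1 list at a time, the MYC peak's TWEAK difference ranged from −0.0721 to 0.609 over all lists, lowest without Hs578T control untreated replicate 2 and also negative, at −0.00931, without MDA-MB-231 Fn14 KO untreated replicate 2. In Fn14 KO cells it ranged from −0.962 to 0.149, positive without MDA-MB-231 Fn14 KO untreated replicate 1. Fn14 KO minus control ranged from −0.637 to 0.0445, positive without Hs578T control untreated replicate 1. Covered length with TWEAK in Fn14 KO cells ranged from −6.97 to 0.429 kb, and the difference in the number of peaks from −2.5 to 0.5, both positive without MDA-MB-231 Fn14 KO untreated replicate 1. Regions lower with TWEAK in control cells numbered 5 to 10, and 5 came without MDA-MB-231 control untreated replicate 1 or Hs578T control untreated replicate 1. In untreated Fn14 KO cells 0 to 1 were higher and 0 to 1 lower. The higher call at R56 was lost without replicate 1 of MDA-MB-231 control, replicate 2 of MDA-MB-231 Fn14 KO, replicate 1 of Hs578T control or replicate 2 of Hs578T Fn14 KO, and the lower call came without Hs578T control untreated replicate 2. Rules for gained, lost and genotype-differing regions ask every list left to agree. Leaving out a list can therefore keep or raise these counts but not lower them. Gains ranged from 0 to 1 in MDA-MB-231 Fn14 KO (1 without untreated replicate 2) and from 5 to 7 in Hs578T control (7 without TWEAK replicate 2). Losses ranged from 1 to 4 in MDA-MB-231 Fn14 KO (4 without untreated replicate 2 or TWEAK replicate 1), from 0 to 2 in Hs578T control (2 without untreated or TWEAK replicate 2) and from 1 to 3 in Hs578T Fn14 KO (3 without untreated replicate 2). Genotypes differed at 7 to 12 regions in untreated MDA-MB-231 (12 without Fn14 KO replicate 2), 7 to 10 in TWEAK-treated MDA-MB-231 (10 without Fn14 KO replicate 1), 6 to 9 in untreated Hs578T (9 without replicate 2 of either genotype) and 9 to 11 in TWEAK-treated Hs578T (11 without control replicate 2).

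The groups share replicate numbers, but the correlations of same-numbered lists ran from −0.0951 to 0.262, and not every pair was over 0.1, so the numbers were not taken to pair the lists. With the replicate block limma kept 71 of 72 calls, with 16 regions higher and 10 lower with TWEAK in control cells. With the block the exact permutation p was 0.25 for the MYC peak in control cells and 0.109 for covered length as the TWEAK effect in control minus that in Fn14 KO cells.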
